A study of Homo sapiens with 24 samples.

Results

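HS578T and SUM159PT are established human breast cancer cell lines that lack the oestrogen and progesterone receptors and amplified HER2 and that grow as spindle-shaped, mesenchymal-like cells. The comparison described here set the 3 HS578T arrays of the vehicle (DMSO) arm against the 3 SUM159PT arrays of the same arm, 6 of the 24 arrays of the series, chosen by the line and treatment given in the sample labels. Every array held total RNA taken after 24 h of DMSO, and none of the 6 carried a genetic change made for the study. HS578T cells grew in DMEM with 10% fetal bovine serum, whereas SUM159PT cells grew in F12 medium with 10% serum, 10 µg/ml insulin, 10 µg/ml hydrocortisone, 10 ng/ml EGF and gentamicin; both media held Penstrep. Line and growth medium therefore changed together in every comparison and cannot be told apart. The remaining arrays used here were 3 of SUM149PT under DMSO, another triple-negative line that shared the SUM159PT medium, and 3 arrays each of HS578T and SUM159PT under AZD3965, an inhibitor of monocarboxylate transport. Each group is 1 line, and no label says that its 3 arrays came from separate cultures, so every p-value covers no more than array-to-array variation, possibly technical.

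RNA was measured on Affymetrix arrays with 54675 probe sets, and levels are given in the signal units of the deposited tables, which the authors had scaled so that the trimmed mean of each array was 500.1. Signals of different probe sets were not set against each other, except that the signals of cell type markers were summed. Such a sum follows its brightest probe sets. Differences are HS578T minus SUM159PT on the scale log2(signal + 16), with 1 probe set per gene, and are smaller than the ratio of signals for dim genes. Where 2 sets of 3 values are set against each other, the HS578T arrays come first. A gene was called when its limma adjusted p was under 0.05 and the difference at least 2-fold. Replicate arrays of a line correlated closely, with mean r between 0.980 and 0.983 over the probe sets, against 0.919 to 0.926 between arrays of the 2 lines, and the 3′ to 5′ signal ratios of actin (1.22 to 1.36) and GAPDH (0.815 to 0.938) covered like ranges in both lines. SUM159PT replicate 3 had the highest median signal of the 6 arrays (67.4, against 49.2 to 60.5 on the other 5).

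Breast cancer cells of mesenchymal type have lost much of the adhesion and keratin programme of the mammary epithelium and express genes of connective tissue cells in its place. That state is not uniform: fibroblasts, smooth muscle cells and pericytes share vimentin and N-cadherin but differ in the collagens, contractile proteins and growth factors they make, and steroid hormones and growth factors in the medium switch further sets of genes. Both lines carried the defining mesenchymal markers. VIM, the intermediate filament vimentin, gave 25920.5, 24648 and 20304 units on the HS578T arrays and 21409.5, 25733 and 23179 on the SUM159PT arrays, which overlapped. ZEB1, a repressor of E-cadherin, gave 4895 ± 34.7 (SD, n = 3) in HS578T and 3763 ± 26.3 in SUM159PT. Its arrays did not overlap between the lines. The difference of 0.38 ± 0.24 (SE) was under 2-fold and was not called (limma adjusted p = 0.185). That SE and p rest on a spread pooled over all groups fitted, including SUM149PT, where ZEB1 was dim (86.1 ± 16.8 under DMSO). They do not measure the spread of the HS578T and SUM159PT arrays alone. CDH1, which encodes E-cadherin, was at 5.32, 2.79 and 4.66 units in HS578T and 3.62, 4.02 and 2.95 in SUM159PT, beside a mean of 8772 in SUM149PT. Of 10 epithelial markers 7 were under 50 units in each line (EPCAM in HS578T and ESRP1 in SUM159PT among them, the others shared), and none of 9 mesenchymal markers was under 50 in either.

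Of 14141 genes tested, 3024 (21.4%) were called. Of these 1632 (11.5% of the genes tested) were higher in HS578T and 1392 (9.84%) in SUM159PT. Without the 2-fold minimum 8207 genes (58%) passed the adjusted p alone, and the arrays of the 2 lines did not overlap for 9048 genes (64%). A share of called genes near 21.4% is therefore no result about a list. Large differences were more often toward HS578T: 646 genes were at least 4-fold higher in HS578T and 390 in SUM159PT, and 186 and 100 were at least 16-fold higher. The median difference over all genes tested was -0.03 and the median absolute difference 0.47. In bulk RNA, fewer cells that express a gene and less of its RNA per cell cannot be told apart.

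**Figure D1:**
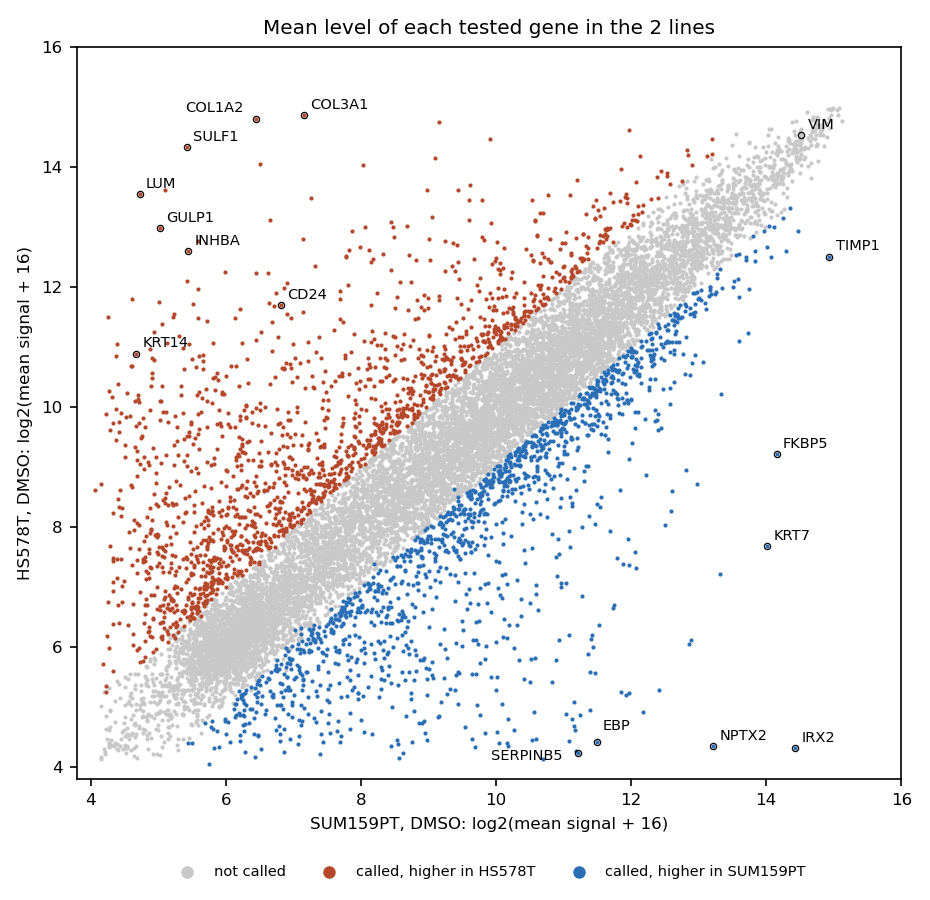
Mean signal of each gene tested in SUM159PT (horizontal axis) and in HS578T (vertical axis) under DMSO, both as log2(mean signal + 16), with 3 arrays a line. Red points are the 1632 genes called higher in HS578T and blue points the 1392 called higher in SUM159PT. COL1A2, COL3A1, SULF1 and LUM lie at the upper left and IRX2, NPTX2 and KRT7 at the lower right, while VIM lies on the diagonal.

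The 15 largest differences toward HS578T were led by genes of the extracellular matrix. SULF1, an extracellular enzyme that removes sulfate groups from heparan sulfate, gave 20771, 21695 and 19092 units on the HS578T arrays and 55.5, 12.1 and 12.8 on the SUM159PT arrays, a difference of 9.05 ± 0.37 (SE; adjusted p = 4.82e-16). LUM, the collagen-binding proteoglycan lumican, gave 9799, 12971 and 12998 in HS578T and 2.23, 9.92 and 19 in SUM159PT (8.86 ± 0.28, adjusted p = 5.53e-18). CEMIP, a hyaluronan-degrading protein, gave 12426, 12526 and 12845 against 29.2, 18.1 and 7.08 (8.58 ± 0.28). All 3 genes were thus bright on each HS578T array and near the bottom of the scale on each SUM159PT array, and SUM149PT was also low, with means of 28.4, 4.15 and 74.8. COL1A2, the α2 chain of type I collagen, gave 30636, 29739 and 25379.8 in HS578T and 74.5, 24.7 and 114 in SUM159PT (8.51 ± 0.40). COL3A1, type III collagen, gave 28799, 31483 and 29108 against 116, 119 and 146 (7.71 ± 0.25), and THY1, a fibroblast surface glycoprotein, gave 6889.8, 6974 and 6977 against 24.3, 35.4 and 36 (7.19 ± 0.37). The arrays of the lines were separate for these 15, as the rule that chose them required. BGN, the proteoglycan biglycan, differed by 6.82 ± 0.21 and PXDN, a matrix peroxidase that crosslinks type IV collagen, by 7.56 ± 0.20.

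Not all of the leading genes encode matrix proteins. INHBA, the activin A subunit and thus a ligand of the TGF-β family, gave 5861, 6369 and 6289.8 in HS578T and 32.4, 23.7 and 26.5 in SUM159PT (7.16 ± 0.12, adjusted p = 3.15e-23), with 3782 in SUM149PT. GPNMB, a transmembrane glycoprotein of melanosomes and macrophages, gave 8835, 9476 and 8327 against 93, 83.1 and 77.6 (6.47 ± 0.13). NLGN4X, a neuroligin of synapses, gave 3853, 3547 and 3285 against 3.31, 4.4 and 17.7 (7.24 ± 0.32). GULP1 (an adaptor in the uptake of dead cells), ARMCX2, BICC1 (an RNA-binding protein) and LDB2 (a cofactor of LIM-domain factors) made up the rest, with differences of 7.96, 7.25, 6.71 and 6.67. SUM149PT resembled neither line for GULP1 (mean 816) and BICC1 (1148), whose levels lay between those of the other two.

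In the opposite direction the largest difference belonged to IRX2, a homeobox transcription factor of the Iroquois family. IRX2 gave 2.67, 2.73 and 6.13 units on the HS578T arrays and 20176, 23256 and 22700.4 on the SUM159PT arrays, a difference of -10.12 ± 0.13 (adjusted p = 1.02e-24), and SUM149PT had a mean of 439.7. NPTX2, a secreted pentraxin that clusters glutamate receptors at synapses, gave 5.85, 4.75 and 2.21 against 9519, 9881 and 9056 (-8.88 ± 0.30, adjusted p = 1.35e-17), with 13.3 in SUM149PT. Both genes were therefore bright on every SUM159PT array and at the floor of the scale on every HS578T array. The 250 bases before the RefSeq start of these 2 genes are shown because both are dense in CpG dinucleotides, the sites of DNA methylation in promoters, which the arrays did not measure. IRX2 lies on the minus strand at chr5:2751678-2751927 and NPTX2 on the plus strand at chr7:98617035-98617284 (GRCh38.p14), and capitals mark each CG.
IRX2: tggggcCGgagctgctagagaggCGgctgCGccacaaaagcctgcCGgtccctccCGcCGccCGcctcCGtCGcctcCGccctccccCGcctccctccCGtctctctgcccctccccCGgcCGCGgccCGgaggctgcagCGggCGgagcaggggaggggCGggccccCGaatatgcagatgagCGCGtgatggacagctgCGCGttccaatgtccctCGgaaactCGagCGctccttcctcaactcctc
NPTX2: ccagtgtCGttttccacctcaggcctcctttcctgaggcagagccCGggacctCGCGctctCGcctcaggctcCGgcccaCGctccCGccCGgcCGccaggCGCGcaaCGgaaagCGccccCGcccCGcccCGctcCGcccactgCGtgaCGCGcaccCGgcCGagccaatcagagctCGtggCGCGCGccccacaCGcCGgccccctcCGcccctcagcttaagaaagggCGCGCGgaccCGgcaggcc
The IRX2 stretch holds 27 CG dinucleotides at 72.8% G and C, and that of NPTX2 holds 34 at 75.6%. By the definition given below, 71.6% of the genes tested that had a promoter sequence were CpG-rich. That definition asks for less, a GC content of at least 55% and an observed to expected CG ratio of at least 0.6. The ratios here were 0.835 for IRX2 and 1.01 for NPTX2. How many promoters reach the density of these 2 was not counted.

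The other leading genes of SUM159PT encode proteins of varied kinds. SERPINB5, the epithelial serpin maspin, gave 2.49, 2.03 and 3.46 in HS578T and 2414, 2522 and 2159.7 in SUM159PT (-6.99 ± 0.10), and BNC1, the keratinocyte transcription factor basonuclin, gave 1.63, 1.46 and 1.69 against 1783, 1641 and 1495 (-6.55 ± 0.13). EREG, the EGF-receptor ligand epiregulin, gave 13.4, 4.36 and 7.76 against 2283, 2156 and 2397 (-6.56 ± 0.15), and IL18, an epithelial cytokine, gave 1.44, 5.31 and 2.51 against 2522, 2121 and 2284 (-6.93 ± 0.14). SUM149PT was high for all 4, with means of 4356, 3703, 5548 and 2553. IRS2, which carries signals from the insulin receptor, gave 35.6, 22.7 and 6.95 against 3858, 3580.1 and 3618 (-6.69 ± 0.19) and had 2483 in SUM149PT. TFPI2, a matrix-bound protease inhibitor, was at 6.73, 3.75 and 53.7 in HS578T, where 1 array was above the other two, and at 4146, 4113 and 3712 in SUM159PT (-6.99 ± 0.32). ADGRF5 (an adhesion receptor of alveolar and endothelial cells), PCLO (a scaffold of the presynaptic zone), GPM6B (a neural proteolipid), MAGEC2 (a cancer-testis antigen), OCIAD2 and C19orf33 differed by -7.14, -6.86, -6.74, -6.77, -7.26 and -6.66. SUM149PT was low for ADGRF5 (mean 18) and MAGEC2 (27.5) and high for OCIAD2 (2877) and C19orf33 (4936).

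**Figure D2:**
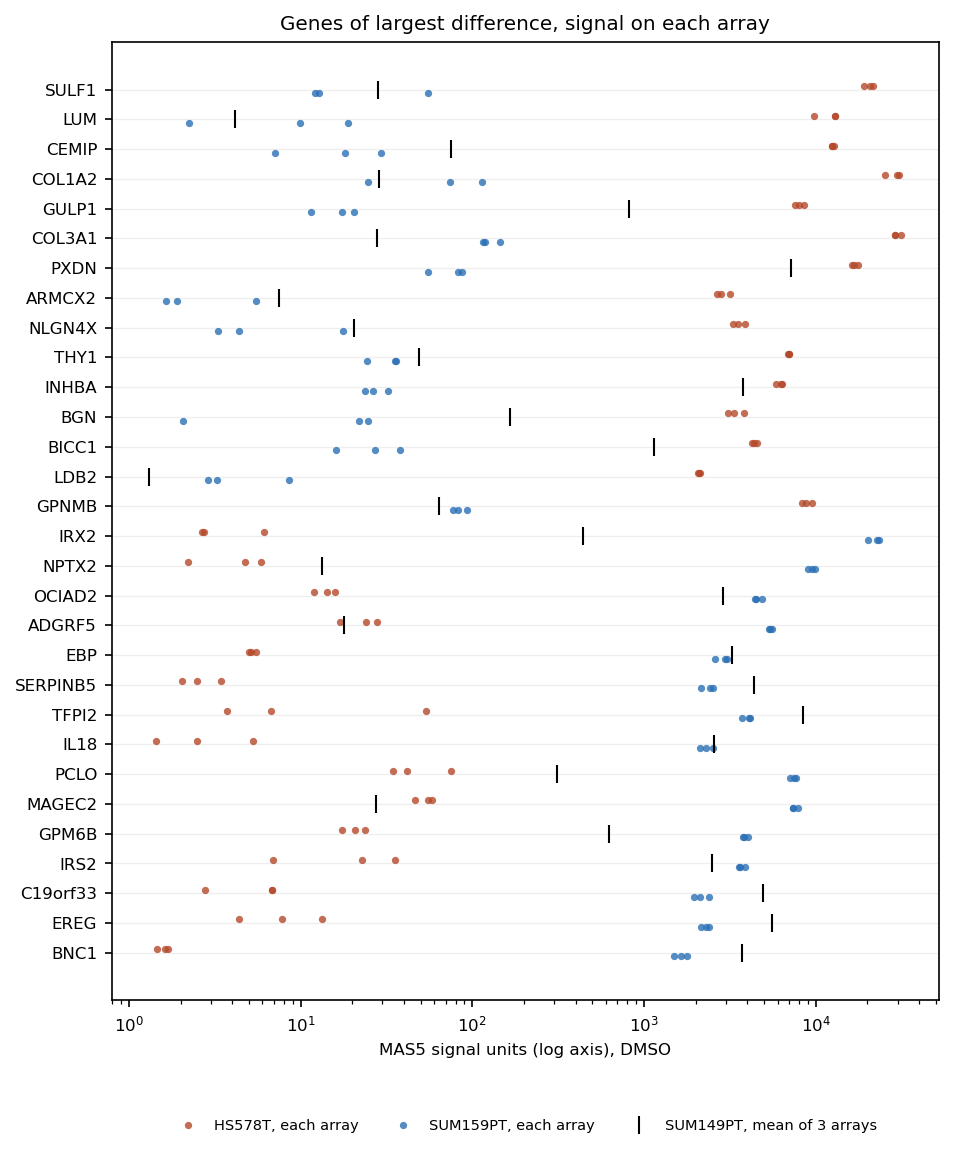
MAS5 signal (log axis) of the 30 genes of largest difference on each DMSO array of HS578T (red) and SUM159PT (blue), with the mean of the 3 SUM149PT arrays as a black bar. The red and blue points of every gene are separate, and SUM149PT lies near SUM159PT for SULF1, LUM and COL1A2 but near HS578T for NPTX2, ADGRF5 and MAGEC2.

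Some genes were bright in one line and at the floor of the scale in the other. With on defined as 1000 units or more on all 3 arrays of a line and off as under 50 on all 3 of the other, 50 genes were on in HS578T and off in SUM159PT, and 30 were on in SUM159PT and off in HS578T. Signals under 50 may be background, so the arrays do not show that those genes were silent. In SUM149PT, 31 of the 50 HS578T genes had a mean under 50, 7 were at 1000 or more and 12 lay between. Of the 30 SUM159PT genes, 14 were at 1000 or more in SUM149PT, 8 were under 50 and 8 lay between. The shares of all genes tested at these SUM149PT levels were not computed, so these counts are description only. A RefSeq promoter sequence was found for 34 of the 50 and 25 of the 30. A CpG-rich sequence (GC content of at least 55% and an observed to expected CG ratio of at least 0.6 over 300 bases around the start) was present in 17 (50%) and 15 (60%) of these, beside 8157 of the 11393 genes tested that had a sequence (71.6%).

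The groups below were read against the shares of all genes tested, 11.5% higher in HS578T and 9.84% higher in SUM159PT. Among lists with at least 10 members tested, those of contractile, fibroblast and pericyte, cholesterol, collagen and TGF-β genes were called higher in HS578T for at least 50% of those tested. At a lower cut, those of glucocorticoid-responsive, keratin, ERK output, interferon, S100 and integrin genes were called higher in SUM159PT for at least 33.3% of those tested. Integrin genes had the same share toward HS578T. Toward HS578T that lower cut was also passed by the WNT (45.5%), protease (43.3%), matrix glycoprotein (41.9%) and cadherin (37.5%) lists. The collagen processing (36.8%), axon guidance (36.6%), cancer-testis (35.3%) and growth factor (34.2%) lists passed it too. Mitotic genes (1 of 32 called), DNA replication genes (4 of 32) and stable reference genes (0 of 13) lay below the 21.4% of all genes. The same filter left out 15 entries of the developmental factors, 13 each of the WNT and axon guidance lists, 11 of the cadherins and 9 of the HOX genes, and members of these lists that passed through the line where they were high had to differ.

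**Figure D3:**
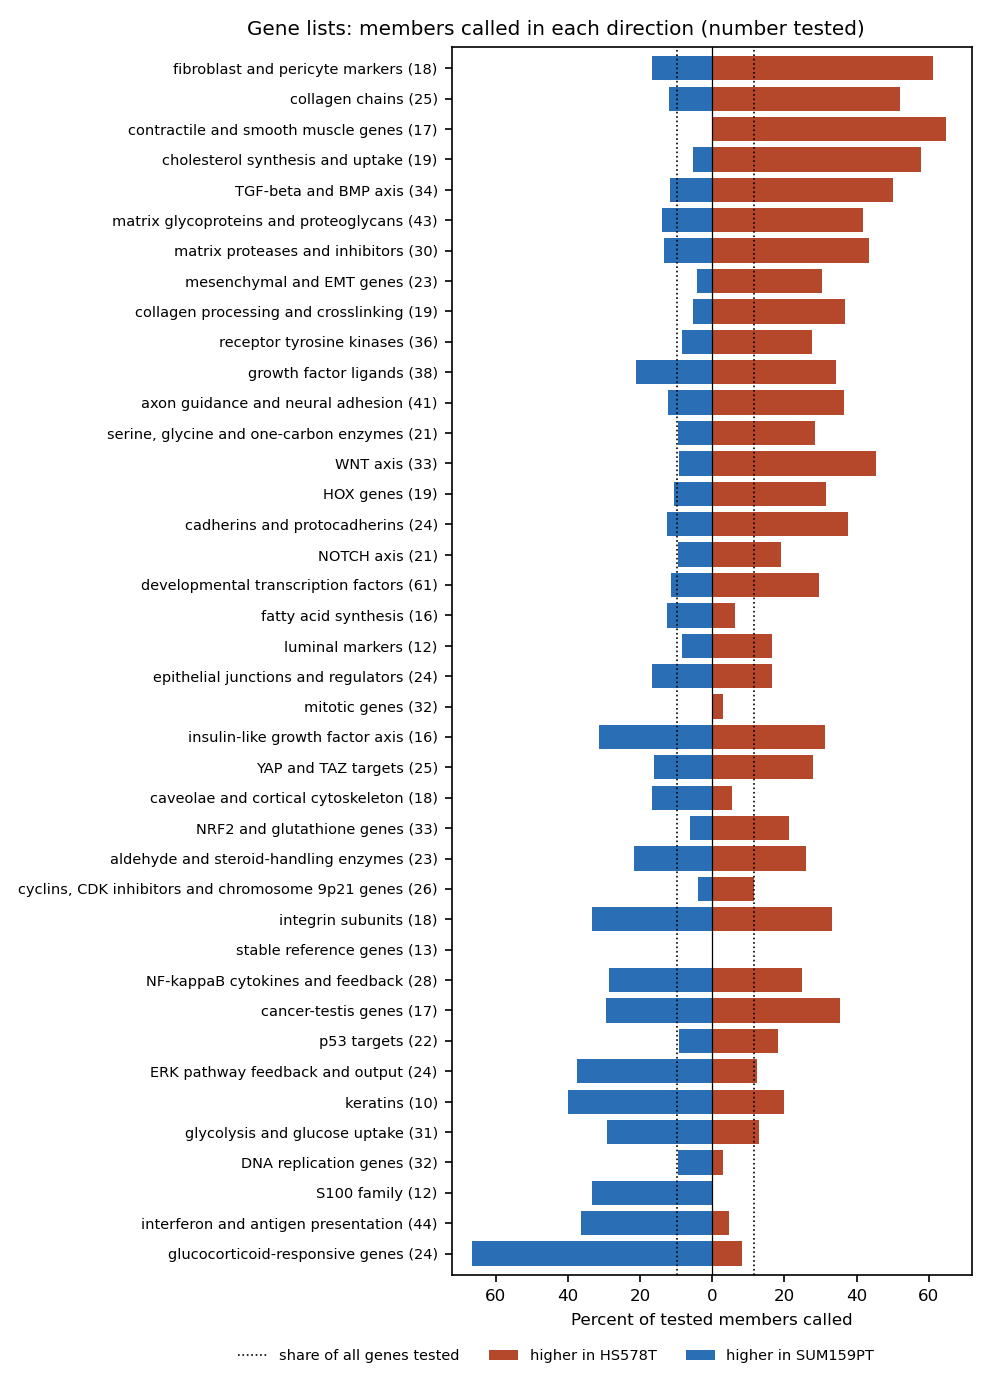
Percent of the tested members of each list that were called higher in HS578T (red, to the right) or in SUM159PT (blue, to the left) under DMSO, for lists with 10 or more members tested, in the order of their median difference. The dotted lines mark the shares over all genes tested, 11.5% and 9.84%. The red bars are longest for contractile and fibroblast genes and the blue bar is longest for glucocorticoid-responsive genes.

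Collagen genes were more often higher in HS578T, and the chains of type IV collagen differed in both directions. Of 25 collagen chains tested, 13 were higher in HS578T and 3 in SUM159PT, with a median difference of 1.42. Beside COL1A2 and COL3A1, COL6A2 of the microfibrillar type VI collagen gave 6929, 6937 and 7369.9 units in HS578T and 129.8, 169.9 and 75.3 in SUM159PT (5.71 ± 0.32), and COL15A1, a basement-membrane-associated collagen, gave 699.8, 994 and 850.2 against 0.212, 6.33 and 9.71 (5.35 ± 0.20). COL1A1, the partner chain of COL1A2 in type I collagen, was not called, at 18080.4, 19698 and 20893 against 17125, 17055 and 17918 (0.17 ± 0.18, adjusted p = 0.442); it is named after its value was seen. The 3 chains higher in SUM159PT all belonged to type IV, the network collagen of basement membranes. COL4A6 gave 39.9, 42.5 and 33.5 in HS578T and 1846, 1885 and 1920.3 in SUM159PT (-5.12 ± 0.16), COL4A5 differed by -2.60 ± 0.10 and COL4A4 by -1.28 ± 0.26. The α1 and α2 chains of the same type went the opposite way: COL4A1 had means of 11134 ± 352 in HS578T and 873 ± 60.4 in SUM159PT (3.65 ± 0.10), and COL4A2 means of 6943 ± 385 and 591 ± 44.3 (3.52 ± 0.09). COL4A1 and COL4A2 are likewise named after their values were seen. COL4A4 was not called with an offset of 64 (-0.62).

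Enzymes that process collagen were also called more often toward HS578T. Of 19 tested, 7 were higher in HS578T and 1 in SUM159PT (median 0.57). LOX, the lysyl oxidase that crosslinks collagen, gave 12671, 12556 and 12534 in HS578T and 711, 752 and 569 in SUM159PT (4.19 ± 0.11). Its relatives LOXL1 and LOXL3 differed by 4.30 ± 0.16 and 5.15 ± 0.17, and PCOLCE, an enhancer of procollagen cleavage, by 2.79 ± 0.31. TLL1, a procollagen C-proteinase, was the 1 member higher in SUM159PT, at 16.4, 18.6 and 30.2 against 61.8, 59.8 and 64.9 units (-1.07 ± 0.25), with low signals in both lines. TLL1 was not called without HS578T replicate 1 (-0.97) or with an offset of 64 (-0.56).

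Matrix glycoproteins and proteoglycans numbered 43 tested, of which 18 were higher in HS578T and 6 in SUM159PT (median 0.83). POSTN, periostin, gave 29183, 29295 and 24398 in HS578T and 542, 567 and 545 in SUM159PT (5.60 ± 0.26) and had a mean of 7.57 in SUM149PT. MFAP2, a protein of elastic microfibrils, differed by 4.74 ± 0.11. The members higher in SUM159PT included TNC, tenascin C, at 266, 294 and 358 against 2051, 2134 and 1683 (-2.62 ± 0.14), LAMB3, a chain of epithelial laminin-332, at 269.9, 387 and 332 against 960.1, 1017 and 1096 (-1.60 ± 0.14), FBLN5, a fibulin of elastic fibres (-1.60 ± 0.26), and NID1, the basement membrane linker nidogen 1 (-1.68 ± 0.27). TNC was called with the brightest probe set but not with the mean of its probe sets (-0.99), and NID1 was not called with an offset of 64 (-0.65).

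Among proteases and their inhibitors 13 of 30 were higher in HS578T and 4 in SUM159PT (median 0.71). ADAMTS5, an aggrecan-cleaving protease, gave 2799, 2506 and 2638 in HS578T and 9.06, 8.57 and 33.6 in SUM159PT (6.41 ± 0.26). ADAMTS1 and ADAMTS2, of which the latter is a procollagen N-proteinase, differed by 4.80 ± 0.15 and 4.26 ± 0.18. The 2 plasminogen activators went opposite ways. PLAU, urokinase, gave 5784, 5292 and 5233 in HS578T and 282, 258 and 266 in SUM159PT (4.26 ± 0.10), and PLAT, the tissue-type activator, gave 520.1, 736 and 770.4 against 1916, 1685 and 1686 (-1.38 ± 0.16). MMP1, interstitial collagenase, gave 50.7, 49.6 and 28.2 against 392, 429 and 389 (-2.86 ± 0.26). TIMP1, a metalloproteinase inhibitor, was bright in both lines and higher in SUM159PT, at 6128, 5888 and 5354 against 30892, 31829 and 31268 (-2.43 ± 0.12).

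Integrin subunits split evenly, 6 of 18 tested being higher in each line (median -0.09). Those higher in HS578T were led by subunits found on mesenchymal cells: ITGA8 gave 1784, 1752 and 1722 against 6.59, 20 and 17.3 (5.88 ± 0.25), ITGA11, a receptor for fibrillar collagen, gave 3217, 3307 and 2372 against 110.2, 81.2 and 121 (4.63 ± 0.26), and ITGA4 differed by 4.68 ± 0.27. ITGB8, which pairs with αv to activate latent TGF-β, differed by 1.28 ± 0.23. Those higher in SUM159PT included both subunits of the laminin receptor α6β4. ITGA6 gave 296, 367 and 459 in HS578T and 3983, 3589.7 and 3395 in SUM159PT (-3.25 ± 0.16), and ITGB4 gave 11.5, 7.3 and 49.6 against 92.1, 119 and 103 (-1.79 ± 0.30), a dim gene in both lines that was not called with an offset of 64 (-0.99). ITGA7 and ITGA10 differed by -1.67 ± 0.32 and -1.60 ± 0.19.

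Smooth muscle genes formed the group with the highest share toward HS578T. Of 17 tested, 11 were higher in HS578T, 0 in SUM159PT and 6 were not called, with a median of 1.27. MYL9, the regulatory light chain of smooth muscle myosin, gave 2930.1, 2783 and 2841 units in HS578T and 58.5, 18 and 19.5 in SUM159PT (6.00 ± 0.40). ACTG2, the enteric smooth muscle actin, gave 3329, 3361 and 3519.5 against 65.6, 72.5 and 114 (5.13 ± 0.22). TAGLN, the actin-binding protein transgelin, gave 6748, 6609 and 5987 against 258, 253 and 200 (4.68 ± 0.16), and ACTA2, α-smooth muscle actin, gave 6071, 6103 and 5729 against 312, 327 and 280.2 (4.22 ± 0.14). SUM149PT was low for all 4, with means of 164, 112, 392 and 165. Actin isoforms are close copies, so a probe set for ACTA2 or ACTG2 may also read the other. MYOCD, the smooth muscle coactivator of SRF, differed by 4.05 ± 0.23 and MYLK, myosin light chain kinase, by 2.26 ± 0.08, both named after their values were seen. SRF itself, the factor that binds CArG boxes, was not called (0.19 ± 0.13, adjusted p = 0.242), nor were DES and MYH11.

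CArG boxes, the A- and T-rich sites bound by SRF, were sought on both strands in the 300 bases around each RefSeq start. Only exact matches counted, with CC, an unbroken stretch of A and T, and GG, as in CCTTATATGG. Sites with a substituted base were therefore missed, and a promoter without a match may still hold one. A match was found in 1.29% of 27305 promoters, in 123 of the 11393 genes tested that had a sequence (1.08%) and in 4 of the 12 contractile genes that had one (33.3%). Among contractile genes called higher in HS578T it was 2 of 8 (25%), ACTG2 and MYLK; the other matches, in CNN2 and SRF, lay in genes that were not called. The 250 bases before the start of ACTG2 (plus strand, chr2:73892758-73893007) and MYLK (minus strand, chr3:123620549-123620798) are shown in GRCh38.p14 with the CArG boxes in capitals, as the 2 members that were both called and matched.
ACTG2: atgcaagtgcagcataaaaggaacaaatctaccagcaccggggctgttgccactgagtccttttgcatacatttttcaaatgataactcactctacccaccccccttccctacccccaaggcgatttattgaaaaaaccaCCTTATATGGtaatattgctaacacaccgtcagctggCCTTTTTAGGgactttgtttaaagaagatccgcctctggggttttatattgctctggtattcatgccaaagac
MYLK: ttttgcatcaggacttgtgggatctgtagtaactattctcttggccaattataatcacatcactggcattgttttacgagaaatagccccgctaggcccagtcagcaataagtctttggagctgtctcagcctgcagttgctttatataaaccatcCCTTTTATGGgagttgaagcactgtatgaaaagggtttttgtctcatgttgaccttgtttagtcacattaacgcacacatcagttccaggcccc
In ACTG2 the boxes lay 110 to 101 and 73 to 64 bases before the start, and in MYLK the box lay 94 to 85 bases before it. Binding was not measured.

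Epithelial junction genes were called in both directions in equal number. Of 24 junction proteins and regulators tested, 4 were higher in HS578T and 4 in SUM159PT, and 16 were not called (median 0.03). CD24, a surface glycoprotein of luminal cells, gave 3427, 3284 and 3197 in HS578T, 83.2, 109.7 and 96.7 in SUM159PT (4.89 ± 0.11) and a mean of 12260.5 in SUM149PT. CD44, its counterpart in the breast stem-cell phenotype, was not called with its brightest probe set, at 19129, 21108 and 21432 against 14047, 14714 and 14846 (0.50 ± 0.06). Its other probe sets also lay toward HS578T, by 0.14 to 1.67, and some were at least 2-fold higher there. One of these had means of 9861 in HS578T and 4398 in SUM159PT (1.17). DSP, the desmosomal plaque protein desmoplakin, gave 2034, 1779 and 2102 against 444, 467 and 430.2 (2.10 ± 0.10), whereas DSG2, the desmosomal cadherin desmoglein 2, gave 1573, 2111 and 1952 against 4924, 5645 and 4858 (-1.45 ± 0.11). ESRP1, an epithelial splicing regulator, was at 109, 109.8 and 96.9 against 5.07, 1.58 and 25.1 (2.29 ± 0.23), far under the 4018 of SUM149PT. KLF5, an epithelial transcription factor, CLDN1, claudin 1 of tight junctions, and DSC2, the desmosomal cadherin desmocollin 2, differed by -2.09, -1.31 and 2.12; CLDN1 was not called with its probe sets averaged (-0.88). EPCAM, an epithelial adhesion molecule, was at 16.9, 10.7 and 9.9 against 40.5, 27.9 and 95.4 (-1.20 ± 0.22), against 14966 in SUM149PT; its call was lost without SUM159PT replicate 3 (-0.81) and with an offset of 64 (-0.59).

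Keratins differed in both directions. KRT7, a simple-epithelial keratin, gave 233, 151 and 181 units in HS578T and 16072, 17563 and 16078 in SUM159PT (-6.36 ± 0.11, adjusted p = 1.73e-22), and KRT8, another, gave 254, 279 and 386 against 3118, 3108 and 2622 (-3.22 ± 0.17). KRT14, the basal-cell keratin, went the opposite way, at 1913, 1806 and 1924 in HS578T and 4.97, 3.55 and 19.9 in SUM159PT (6.27 ± 0.19). KRT80 and KRT75 differed by -4.55 ± 0.23 and -3.37 ± 0.27, and KRT16 was dim in both lines (75.4, 56.5 and 15.8 against 3.71, 8.96 and 13.1; 1.29 ± 0.30). In all 2 of the 10 keratins tested were higher in HS578T and 4 in SUM159PT (median -0.22). Of the 4 KRT7 probe sets above the filter, 2 were at least 2-fold higher in SUM159PT. KRT16 was not called without HS578T replicate 1 (0.98) or with an offset of 64 (0.60).

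Luminal markers gave 2 of 12 higher in HS578T and 1 in SUM159PT (median 0.11). MUC1, a mucin of luminal cells, gave 719, 616 and 600.0 against 111, 109 and 149 (2.26 ± 0.15), GATA3, the luminal transcription factor, gave 1023, 941 and 849.9 against 371, 343 and 421 (1.28 ± 0.12), and CA12, a carbonic anhydrase, gave 3071, 2869 and 2817 against 7777, 8280.1 and 7349 (-1.41 ± 0.08). ESR1 and FOXA1 were not called. Among S100 proteins, small calcium-binding proteins, 4 of 12 were higher in SUM159PT and 0 in HS578T (median -0.61). S100A2, found in squamous and basal cells, gave 527, 422 and 476 against 7130.5, 7243 and 7053 (-3.87 ± 0.09), and S100A4, a protein linked to cell motility, gave 1156, 1266 and 1114 against 10548, 10649.9 and 9591 (-3.11 ± 0.10). S100P and S100A14 differed by -1.98 ± 0.17 and -1.34 ± 0.34, the latter not called with an offset of 64 (-0.68).

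Although both lines were mesenchymal by their markers, 7 of 23 mesenchymal genes were higher in HS578T and 1, S100A4, in SUM159PT (median 0.61). CDH11, cadherin 11 of bone and fibroblasts, gave 11280.4, 12045 and 11094 in HS578T and 153, 134 and 124 in SUM159PT (6.23 ± 0.10), and PRRX1, a homeobox factor of limb and connective tissue mesenchyme, gave 8165, 8551 and 7841 against 195, 215 and 344 (4.98 ± 0.18). NCAM1, a neural adhesion molecule, differed by 1.61 ± 0.24, but by 0.95 and uncalled with its probe sets averaged. CDH2, N-cadherin, gave 8163, 9120.1 and 9167 against 4113, 4232 and 4057 (1.09 ± 0.09), a difference close to the 2-fold minimum that fell to 0.997 with median centring. AXL, a receptor tyrosine kinase of mesenchymal cells, did not overlap between the lines but fell short of 2-fold (0.59 ± 0.07).

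The fibroblast and pericyte list repeated several collagens and matrix genes named above: 11 of 18 were higher in HS578T and 3 in SUM159PT (median 2.68). The summed signal of 6 fibroblast markers (PDGFRA, PDGFRB, FAP, DCN, LUM and THY1) ran from 31861 to 34917 in HS578T and from 6755 to 7451 in SUM159PT, with 0 and 2 of them under 50 units. LUM and THY1 also stood among the largest differences toward HS578T named above. The part of these markers in the matrix and collagen differences was not tested. The 3 higher in SUM159PT were C3, a complement protein, at 8.84, 12.5 and 16.4 against 564, 618 and 476 (-4.31 ± 0.18), S100A4, and PDPN, podoplanin, at 259.5, 182 and 232 against 707, 648 and 580.4 (-1.47 ± 0.24). Of cytoskeletal and caveolar genes 1 of 18, EHD2 (1.09 ± 0.20), was higher in HS578T and 3 in SUM159PT (median -0.01). ANXA3, an annexin, gave 26, 20 and 14.2 against 233, 260.4 and 245 (-2.87 ± 0.13), EZR, the membrane-actin linker ezrin, gave 1889.7, 2318 and 2658 against 6932, 6997 and 7498 (-1.65 ± 0.10), and CAVIN2, a coat protein of caveolae, differed by -2.46 ± 0.34. EHD2 was not called without SUM159PT replicate 2 (0.97), with its probe sets averaged (0.87) or with median centring (0.994).

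Members of the TGF-β and BMP axis, which signals from secreted ligands to SMAD proteins, were more often higher in HS578T. Of 34 tested, 17 were higher in HS578T and 4 in SUM159PT (median 1.02). Beside INHBA, the second activin subunit INHBB gave 1847, 1208 and 1169 units in HS578T and 10.4, 12 and 19.3 in SUM159PT (5.55 ± 0.35), and FST, the activin antagonist follistatin, gave 3428, 3255 and 3115 against 45.9, 88 and 132 (5.06 ± 0.25). Activin subunits and their antagonist were thus high in the same line. LTBP1, which holds latent TGF-β in the matrix, gave 7415, 7023 and 7418 against 344, 326 and 363 (4.34 ± 0.12), and TGFB2, a TGF-β ligand, gave 3554, 3710.5 and 4189.9 against 294, 261 and 304 (3.66 ± 0.10). The 4 members higher in SUM159PT were NOG, the BMP antagonist noggin, at 51.4, 47.5 and 43.2 against 415, 352 and 433 (-2.71 ± 0.22), ID1, a BMP target, at 2208, 2335 and 1989.6 against 12209, 13472 and 11294 (-2.49 ± 0.12), FSTL3 (-1.66 ± 0.16) and GDF15 (-1.06 ± 0.33). GDF15 was not called without HS578T replicate 3 (-0.999) or SUM159PT replicate 1 (-0.98), or with an offset of 64 (-0.74). Neither receptor chain, TGFBR1 or TGFBR2, was called.

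In the WNT axis 15 of 33 members were higher in HS578T and 3 in SUM159PT (median 0.32). Secreted WNT-binding proteins were prominent: SFRP2 gave 1762, 2032 and 1668 in HS578T and 2.63, 5.97 and 5.88 in SUM159PT (6.46 ± 0.28), and SFRP1 gave 1166, 1146 and 1057 against 35.6, 8.34 and 57.9 (4.65 ± 0.24). SUM149PT differed between these 2, with means of 7.41 for SFRP2 and 10749 for SFRP1. SFRP4 and the ligand WNT5B differed by 4.24 ± 0.30 and 4.77 ± 0.36. FZD3, a frizzled receptor, was higher in SUM159PT at 33.7, 33.3 and 33.6 against 539, 543 and 408 (-3.36 ± 0.25), as were the secreted inhibitors DKK1 at 6633, 6092 and 5927 against 19266, 19476 and 21504 (-1.69 ± 0.08) and DKK3 (-1.06 ± 0.18), the last of which was not called without SUM159PT replicate 2 (-0.999). DKK3 was also not called with its probe sets averaged (-0.83). AXIN2, a transcriptional target of β-catenin, was not called (0.36 ± 0.27, adjusted p = 0.269).

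NOTCH genes gave 4 of 21 higher in HS578T and 2 in SUM159PT (median 0.20). HEY2, a NOTCH target repressor, gave 422, 403 and 306 against 6.25, 5.59 and 4.95 (4.17 ± 0.40), and JAG1, a ligand, gave 9009, 9059.6 and 10323 against 2597, 2083 and 3039.6 (1.89 ± 0.13), while the ligand JAG2 gave 127, 96.2 and 72.2 against 231, 202 and 255 (-1.12 ± 0.18). HEY1, DTX3 and LFNG differed by 1.03, 1.03 and -1.21, all near the 2-fold minimum. Calls ended for HEY1 without HS578T replicate 3 (0.97) or SUM159PT replicate 3 (0.99), for DTX3 without HS578T replicate 1 (0.95) or SUM159PT replicate 1 (0.97) and for JAG2 without HS578T replicate 3 (-0.95). With probe sets averaged HEY1 (0.88), DTX3 (0.42), LFNG (-0.89) and JAG2 (-0.96) were not called. An offset of 64 ended the calls of HEY1 (0.96), DTX3 (0.90) and JAG2 (-0.86). Median centring ended those of HEY1 (0.94) and DTX3 (0.93), and quantile normalization that of DTX3 (0.94). Targets of YAP and TAZ, coactivators that respond to cell shape and tension, gave 7 of 25 higher in HS578T and 4 in SUM159PT (median -0.01). CCN2, a matricellular protein and widely used YAP target, gave 26439, 25317 and 23838 in HS578T and 4040.5, 4219 and 3741 in SUM159PT (2.65 ± 0.13). ANKRD1, another target, gave 16.6, 10.3 and 41.4 against 112, 128 and 133 (-1.93 ± 0.36), and FJX1 gave 165, 205 and 191 against 2194, 2135 and 2183 (-3.43 ± 0.10), both higher in SUM159PT. The list therefore held members that differed in opposite directions; F3, TEAD4 and ARHGEF17 differed by -1.49, -1.34 and 1.83.

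Growth factor ligands were called in both directions, 13 of 38 higher in HS578T and 8 in SUM159PT (median 0.36). PTN, the heparin-binding factor pleiotrophin, gave 8534, 8316 and 7762 against 333, 293 and 392 (4.54 ± 0.18), BDNF, a neurotrophin, gave 884, 845 and 1187 against 17.1, 38.4 and 75.8 (4.15 ± 0.23), and ANGPT1, the TIE2 ligand, gave 1878, 1916 and 1938 against 131, 124 and 179 (3.60 ± 0.12). CCN4, a WNT-induced secreted protein, differed by 4.51 ± 0.23. In SUM159PT, beside EREG, ANGPTL4, an inhibitor of lipoprotein lipase, gave 53, 28.7 and 9.39 against 339, 348 and 276 (-2.97 ± 0.26), FGF13 gave 689, 781 and 884 against 5512, 5637 and 5510.1 (-2.81 ± 0.10), and CCN5 differed by -1.81 ± 0.34, but by -0.99 and uncalled with an offset of 64.

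Receptor tyrosine kinases gave 10 of 36 higher in HS578T and 3 in SUM159PT (median 0.39). The ephrin receptors EPHA5, EPHB1 and EPHB3 were higher in HS578T, EPHA5 at 473, 547 and 655 against 15.7, 7.41 and 11.7 (4.38 ± 0.28), EPHB1 by 3.31 ± 0.38 and EPHB3 by 2.96 ± 0.27. EPHA3 and EPHB6, of the same family, were higher in SUM159PT, EPHA3 at 56.2, 71.1 and 84.7 against 731, 691 and 697 (-3.07 ± 0.23) and EPHB6 by -1.02 ± 0.20; the latter was not called without HS578T replicate 1 (-0.98). EPHB6 was also not called with an offset of 64 (-0.83). DDR2, a receptor for fibrillar collagen, gave 1413, 1331 and 1289 against 130.1, 131 and 212 (3.0 ± 0.24). EGFR, the EGF receptor, was not called and its arrays overlapped, at 851, 779 and 898 against 765, 807 and 924 (0.02 ± 0.09, adjusted p = 0.875).

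Genes induced by ERK signalling, many of them feedback inhibitors, were higher in SUM159PT for 9 of 24 and in HS578T for 3 (median -0.20). DUSP5, an ERK phosphatase, gave 275, 229.7 and 243 in HS578T and 2843, 2553 and 2998 in SUM159PT (-3.41 ± 0.11). ETV4, an ETS factor, gave 67.6, 73.9 and 70.7 against 385, 359 and 364 (-2.15 ± 0.15), DUSP4 gave 232, 221 and 266 against 841, 747 and 769 (-1.65 ± 0.12), and MYC gave 3631, 3621 and 3602 against 12533, 11988 and 12432 (-1.76 ± 0.08). The members higher in HS578T were LIF, a cytokine, at 227, 274 and 274 against 8.79, 56 and 40.6 (2.55 ± 0.28), PHLDA1 (1.58 ± 0.08) and ETV5, a close relative of ETV4, at 3475, 3087 and 3449.6 against 1740.0, 1652 and 1471 (1.04 ± 0.09), which was not called without SUM159PT replicate 3 (0.97). ETV5 was also not called with its probe sets averaged (0.98) or with median centring (0.94). The SUM159PT medium contained EGF, whose part in the differences of this list was not tested.

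The insulin-like growth factor axis was called in both directions, 5 of 16 each way (median 0.01). The members higher in HS578T included secreted binding proteins and a protease that cleaves them. IGFBP3 gave 16085, 18641 and 15758 in HS578T and 284, 223 and 232 in SUM159PT (6.01 ± 0.14), IGFBP7 gave 22906, 23749 and 20995 against 998, 976 and 877 (4.55 ± 0.16), and PAPPA, a protease of binding proteins, gave 1195, 1290.4 and 1462 against 11.6, 3.2 and 0.806 (6.00 ± 0.18). In SUM159PT, beside IRS2, the insulin receptor INSR gave 11.3, 12.7 and 13.9 against 383, 366 and 419.9 (-3.82 ± 0.27), PIK3R1, the regulatory subunit of PI3-kinase, gave 766, 816 and 954 against 3067, 2798 and 3283 (-1.83 ± 0.21), and IGFBP2 differed by -2.42 ± 0.26. IGF2R differed by 1.13 ± 0.12. Insulin was in the medium of SUM159PT and SUM149PT, and its part in these differences was not tested. The SUM149PT means were 43.6 for INSR, 515 for PIK3R1, 2483 for IRS2 and 125 for IGFBP2. IGFBP2 had means of 5.97 in HS578T and 108 in SUM159PT.

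Glucocorticoid-responsive genes were the group with the highest share toward SUM159PT. Of 24 tested, 16 were higher in SUM159PT and 2 in HS578T, with a median of -1.53. FKBP5, an HSP90 cochaperone that dampens the glucocorticoid receptor, gave 569.8, 610.0 and 555 units in HS578T and 18226, 18903 and 17478 in SUM159PT (-4.94 ± 0.08, adjusted p = 3.15e-23). MAOA, the monoamine oxidase A gene, gave 24.6, 53.7 and 16.9 against 2751, 2726 and 2533 (-5.89 ± 0.20), and ZBTB16, a zinc-finger repressor, gave 29.7, 13.9 and 24.7 against 728, 650.3 and 584 (-4.13 ± 0.23). TSC22D3, the glucocorticoid-induced leucine zipper, gave 993, 844 and 947 against 3466, 3181 and 2858 (-1.75 ± 0.11). The lines did not overlap for any of these. The 2 members higher in HS578T were CRISPLD2, a secreted protein, at 2399.8, 2518 and 2376 against 255, 249 and 310.1 (3.10 ± 0.20), and PHLDA1, which also stood in the ERK list. NR3C1, the glucocorticoid receptor itself, was not called, at 4809, 4719.8 and 4649 against 3999, 4093 and 3745 (0.26 ± 0.07).

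Hydrocortisone, a glucocorticoid, was in the medium of SUM159PT and SUM149PT at 10 µg/ml, and none is named for HS578T, so line and steroid cannot be told apart here. SUM149PT, grown with the same hydrocortisone, lay between the other lines for some of these genes and below both for others. Its mean was 8429 for FKBP5, 322 for MAOA and 93.3 for ZBTB16, in each case above HS578T and below SUM159PT. For TSC22D3 it was 498, for RGS2 (a G-protein regulator) 486, for DUSP1 (a phosphatase of MAP kinases) 1345 and for GLUL (glutamine synthetase) 1091. These 4 means were below those of HS578T (928, 865, 1840.3 and 1692) as well as those of SUM159PT (3168, 5332, 7909.9 and 7623). RGS2 and DUSP1 are named after their values were seen.

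Enzymes that handle steroids, aldehydes and retinoids gave 6 of 23 higher in HS578T and 5 in SUM159PT (median -0.04). HSD11B1, which regenerates active cortisol from cortisone, gave 48.4, 41.9 and 43.3 in HS578T and 348, 300.5 and 313 in SUM159PT (-2.47 ± 0.18). SULT1E1, the oestrogen sulfotransferase, gave 6.49, 3.06 and 3.2 against 990.2, 1263 and 1155 (-5.83 ± 0.19), and HSD17B1, which makes oestradiol from oestrone, gave 394, 333 and 347 against 1005, 940.1 and 814 (-1.32 ± 0.12). STS, steroid sulfatase, differed by -1.12 ± 0.17 with the chosen probe set but by -0.31 (adjusted p = 0.118, limma) with the mean of its probe sets. In HS578T, CYP1B1, a cytochrome P450 of oestrogens and aromatic hydrocarbons, gave 928, 884 and 889 beside 71.6, 36.2 and 65.5 (3.67 ± 0.22), and AKR1B10, ALDH7A1 and ALDH1A3 differed by 2.15, 1.73 and 1.63.

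The cholesterol synthesis genes that were called were higher in HS578T, except 1 of the late steps. Of 19 tested, 11 were higher in HS578T and 1 in SUM159PT (median 1.16). HMGCS1, the HMG-CoA synthase at the start of the mevalonate pathway, gave 4775, 4469.9 and 4326 units in HS578T and 805, 971 and 774 in SUM159PT (2.40 ± 0.11). INSIG1, a sterol-regulated anchor of SREBP processing, gave 9253, 9913 and 9749 against 1785, 1441 and 1697 (2.55 ± 0.10), ACAT2, which makes acetoacetyl-CoA, gave 7392, 7137 and 7535 against 1464, 1683 and 1469.8 (2.25 ± 0.08), and MVD, mevalonate decarboxylase, gave 421, 460.1 and 366 against 84.1, 135 and 83.2 (1.91 ± 0.23). The arrays of the lines were separate for all 4. SUM149PT, in the SUM159PT medium, had means of 376, 2611, 2863 and 115 for these genes.

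The exception was EBP, the sterol isomerase that moves the double bond in zymostenol on the way to cholesterol. EBP gave 5.49, 5.13 and 5.01 in HS578T and 2946, 3030.5 and 2594 in SUM159PT, a difference of -7.08 ± 0.17 (adjusted p = 2.76e-20), and 3264 in SUM149PT. All 4 EBP probe sets above the filter were at least 2-fold higher in SUM159PT; on the second brightest the arrays read 28.8, 28.8 and 34.9 in HS578T and 1938, 1742 and 1578 in SUM159PT. EBP lies on the X chromosome, and of the 10 tested genes nearest to it 6 were called higher in SUM159PT and 1, SSX1, in HS578T. FTSJ1, a tRNA methyltransferase and the tested gene next to EBP on one side, had means of 1190.0 ± 49.8 in HS578T and 3871 ± 126 in SUM159PT (-1.69 ± 0.10). On the other side TBC1D25, a Rab GTPase activator, was not called, with means of 185 ± 32.9 and 294 ± 5.34. None of these neighbours was as low in HS578T relative to SUM159PT as EBP; they were chosen by position.

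**Figure D4:**
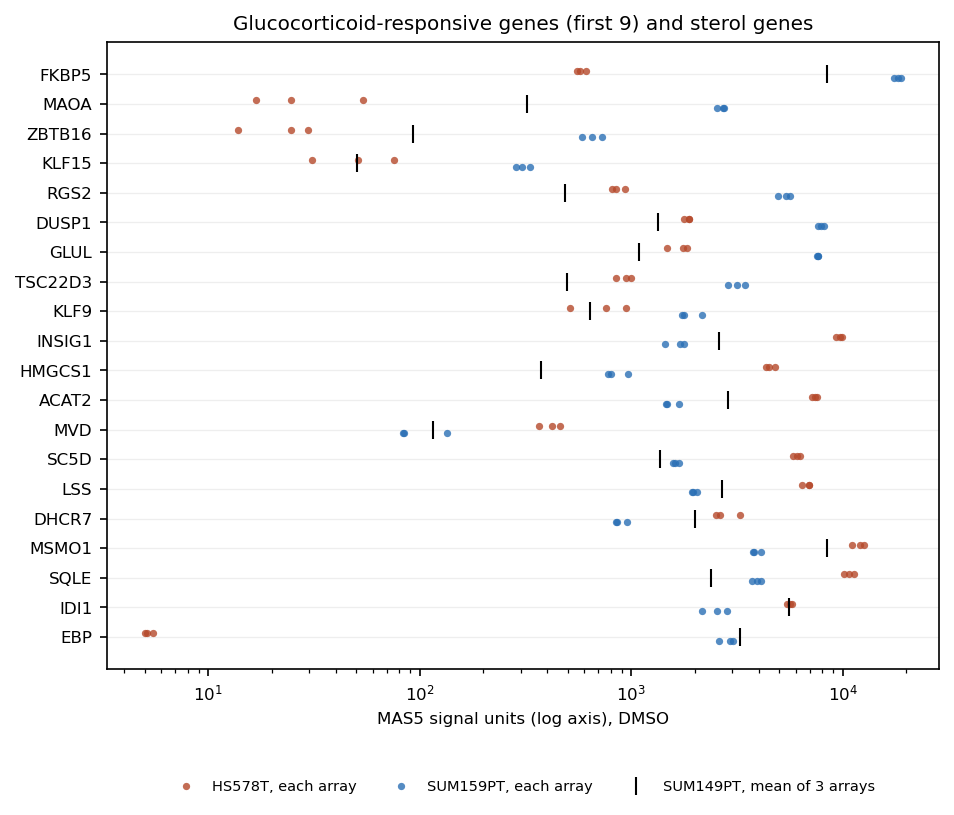
MAS5 signal (log axis) of 9 glucocorticoid-responsive genes and 11 genes of sterol synthesis on each DMSO array of HS578T (red) and SUM159PT (blue), with the mean of SUM149PT as a black bar. SUM159PT lies to the right for the glucocorticoid-responsive genes shown. HS578T does so for the sterol genes shown, except EBP, where HS578T lies between 5.01 and 5.49 units. The genes were picked for display and do not stand for their lists. Of 24 glucocorticoid-responsive genes tested, 2, not shown, were higher in HS578T and 6 were not called. Of 19 cholesterol genes tested, 7 were not called.

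In fatty acid synthesis 1 of 16 genes was higher in HS578T and 2 in SUM159PT (median 0.15). SCD, the stearoyl-CoA desaturase, gave 15809, 15906 and 15118 against 6035, 5781 and 4814 (1.5 ± 0.08), whereas ELOVL6, which elongates palmitate, gave 1275, 1628 and 1506 against 7879, 7747 and 6697 (-2.33 ± 0.13) and ACSL1, a long-chain acyl-CoA synthetase, gave 1558, 1883 and 1829 against 5427, 5031 and 4899 (-1.54 ± 0.12). Enzymes and carriers of serine and one-carbon metabolism gave 6 of 21 higher in HS578T and 2 in SUM159PT (median 0.33). PHGDH, the first enzyme of serine synthesis, gave 6795, 6665 and 6361 in HS578T and 642, 671 and 696 in SUM159PT (3.27 ± 0.12), and ALDH1L2, the mitochondrial formyltetrahydrofolate dehydrogenase, gave 900.1, 1140.1 and 1479.9 against 34.8, 41.3 and 64 (4.24 ± 0.20). SLC1A4, a serine and alanine carrier, and CBS, cystathionine β-synthase, differed by 4.07 ± 0.14 and 2.59 ± 0.16. ASS1, argininosuccinate synthase, was higher in SUM159PT at 307, 312 and 314 against 2239, 2327 and 2078 (-2.77 ± 0.08), as was GLUL (-2.17 ± 0.09).

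Glycolysis and glucose uptake gave 4 of 31 higher in HS578T and 9 in SUM159PT (median -0.26). SLC2A3, the high-affinity glucose carrier GLUT3, gave 13.3, 16.4 and 9.68 units in HS578T and 854, 906 and 791 in SUM159PT (-4.90 ± 0.16). TXNIP, an inhibitor of glucose uptake whose gene responds to glucose, gave 163, 148 and 136 against 3811, 4070.0 and 4121 (-4.61 ± 0.10), and ARRDC4, its relative, gave 64.5, 78.8 and 90 against 391, 374 and 328 (-2.03 ± 0.12). A carrier and an inhibitor of uptake were thus both higher in SUM159PT. PDK3, a kinase that restrains pyruvate dehydrogenase, gave 1055, 1007 and 942 in HS578T and 97, 63.8 and 78.3 in SUM159PT (3.42 ± 0.16), while PDK1, of the same family, gave 725, 890.4 and 838 against 1687, 1770.4 and 1583 (-1.03 ± 0.10). HK2, hexokinase 2, gave 1143, 1668 and 1470.3 against 4139, 3716 and 4185 (-1.50 ± 0.14). Both depended on the probe set: with the mean of the probe sets PDK1 differed by -0.23 (adjusted p = 0.0692, limma) and HK2 by -0.75. PDK1 was also not called without HS578T replicate 1 (-0.95) or SUM159PT replicate 2 (-0.99). ALDOC, SLC2A12, PDK2 and PFKFB4 differed by -2.43, 1.25, 1.16 and 1.09. With an offset of 64 PDK2 (0.87), PFKFB4 (0.98), SLC2A12 (0.73) and PDK1 (-0.99) were not called. PFKFB4 also lost its call with its probe sets averaged (0.72) or without SUM159PT replicate 3 (0.94). SLC2A12 also lost its call without HS578T replicate 1 (1.06, adjusted p = 0.0681, limma) or SUM159PT replicate 2 (1.08, adjusted p = 0.0633, limma).

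Genes of the lactate step, the process the inhibitor arm addressed, mostly fell short of the 2-fold minimum. LDHA, the lactate dehydrogenase subunit of muscle, gave 27338, 25079 and 22399.7 in HS578T and 24632, 30135 and 26002 in SUM159PT, which overlapped (-0.11 ± 0.12, adjusted p = 0.454). LDHB, the heart subunit, gave 21309, 20609.5 and 18585 against 22511, 26037 and 24137 (-0.26 ± 0.10), and BSG, the chaperone of monocarboxylate carriers, gave 2832, 2788 and 2621 against 2021, 2132 and 1815 (0.46 ± 0.07); neither reached 2-fold. Of 7 carriers and chaperones tested, SLC16A9, a carnitine-exporting relative, was higher in HS578T at 327, 304 and 271 against 102, 93.1 and 156 (1.28 ± 0.19). SLC16A7, a high-affinity pyruvate and lactate carrier, was higher in SUM159PT at 636, 628 and 685 against 1493, 1088 and 1494 (-1.03 ± 0.24). Its call was lost without SUM159PT replicate 1 or replicate 3 (-0.96 in both) and with an offset of 64 (-0.98).

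Glutathione and NRF2 target genes gave 7 of 33 higher in HS578T and 2 in SUM159PT (median -0.04). GPX7, a glutathione peroxidase of the endoplasmic reticulum, gave 802, 819 and 776 against 19.7, 11.1 and 38.1 (4.45 ± 0.28), and GSTM3, a glutathione transferase, gave 1281, 1174 and 1042 against 38.2, 52.5 and 46.1 (4.26 ± 0.14). GSTM4 (1.58 ± 0.16) and its cluster neighbours are close copies that probe sets may not separate. CBR3 and MGST2 differed by 1.45 and -2.0, and HMOX1, haem oxygenase 1, gave 1788, 1692 and 1667 against 4795, 5211 and 5055 (-1.54 ± 0.14), with 142 in SUM149PT. NQO1, a standard NRF2 target, was not called.

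Interferon-stimulated and antigen-presentation genes were higher in SUM159PT for 16 of 44 and in HS578T for 2 (median -0.67). BST2, the virus-tethering protein tetherin, gave 22, 5.41 and 11.4 units in HS578T and 2518, 2484 and 2215 in SUM159PT (-6.42 ± 0.19). CD274, the checkpoint ligand PD-L1, gave 104, 108 and 91.5 against 1435, 1614 and 1552 (-3.73 ± 0.14), IFI27 gave 29.9, 5.13 and 29.8 against 385, 412 and 438 (-3.59 ± 0.27), and IFITM1, an interferon-induced membrane protein, gave 317, 363 and 279 against 2378, 2204 and 2056 (-2.74 ± 0.12). The proteasome subunit PSMB8 and the peptide transporters TAP1 and TAP2, neighbours on chromosome 6, were also higher in SUM159PT (-1.82 ± 0.13, -1.11 ± 0.12 and -1.02 ± 0.08). Those in HS578T were IFI6 (1.36 ± 0.25) and HLA-DMA, at 187, 189 and 161 against 65.8, 67.4 and 80.6 (1.16 ± 0.18), which was not called with an offset of 64 (0.85). Standard interferon targets such as ISG15 (0.23 ± 0.09) and MX1 (0.29 ± 0.47) were not called.

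NF-κB cytokines and feedback genes were called in both directions, 7 of 28 higher in HS578T and 8 in SUM159PT (median -0.09). IL6 gave 1373, 1188 and 1201 in HS578T and 114, 116 and 155 in SUM159PT (3.14 ± 0.14), IL11, a cytokine of the IL6 family, gave 750.0, 926 and 791 against 54, 41.9 and 53.1 (3.67 ± 0.15), and LIF, of the same family, was described above. TNFRSF11B, the decoy receptor osteoprotegerin, gave 648, 968 and 1115 against 18.2, 21.9 and 25.7 (4.58 ± 0.25). The chemokine CCL20 went the opposite way at 5.61, 2.81 and 3.95 against 823, 777 and 839 (-5.37 ± 0.16), and IL32 gave 90.3, 112 and 35.2 against 1057, 998 and 825 (-3.45 ± 0.24). CXCL1 and CXCL2, neutrophil chemokines, differed by -1.66 ± 0.14 and -1.79 ± 0.15, the latter not called with its probe sets averaged (-0.80); in both lines they were far under SUM149PT, whose means were 31429 and 9049.

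Cancer-testis genes, normally silent outside the germline, were called in 11 of 17 cases, 6 higher in HS578T and 5 in SUM159PT (median -0.12). Of the list's 51 entries 17 lay below the level filter and 17 were not analysed here. A member silent in 1 line could pass that filter only by being high elsewhere, so the share called was in part set by the filter and is no result about the list. CTAG2 gave 1849, 1536 and 1467 in HS578T and 9.54, 9.17 and 6.74 in SUM159PT (6.05 ± 0.21), and PRAME, a retinoic acid receptor repressor, gave 1149, 1089 and 965 against 9.93, 16.7 and 4.01 (5.39 ± 0.24). PAGE1 and SSX1 differed by 4.27 ± 0.29 and 3.44 ± 0.31. In SUM159PT, MAGEC2 gave 58.2, 55.2 and 46.4 in HS578T against 7344, 7378 and 7919, MAGEC1 gave 40.5, 20.6 and 31.4 against 783, 765 and 807 (-4.12 ± 0.34), DDX43, an RNA helicase, gave 5.05, 0.655 and 10.1 against 371, 514 and 363 (-4.35 ± 0.25), and SPANXB1 differed by -4.17 ± 0.32. SUM149PT was low for all 8, with means from 5.22 to 27.5 units. Several of these families consist of near-identical copies, and a probe set may read more than the copy it is named for.

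Developmental transcription factors gave 18 of 61 higher in HS578T and 7 in SUM159PT (median 0.20). NR2F1, an orphan nuclear receptor of neural crest and mesenchyme, gave 8513, 9559 and 9484 in HS578T and 452, 633 and 466 in SUM159PT (4.12 ± 0.15), SOX9, a factor of cartilage and stem cells, gave 1965, 1887 and 1707 against 174, 187 and 244 (3.11 ± 0.10), and DLX5, a factor of bone, gave 419, 289 and 300.1 against 4.5, 5.18 and 5.93 (4.04 ± 0.30). TFAP2A, an AP-2 factor of ectoderm, gave 5011, 5116 and 4677 against 685, 609 and 676 (2.88 ± 0.07). In SUM159PT, IRX1, a neighbour of IRX2 in the Iroquois cluster of chromosome 5, gave 23.9, 3.08 and 32.4 against 157, 108 and 131 (-2.14 ± 0.32), the same direction as IRX2. EYA1, a transcriptional cofactor with phosphatase activity, gave 3.97, 8.14 and 5.06 against 383, 359.9 and 324 (-4.10 ± 0.37), and TBX18, a T-box factor, gave 12.4, 6.02 and 4.02 against 149, 146 and 164 (-2.86 ± 0.21).

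HOX genes, which record position along the body axis, gave 6 of 19 higher in HS578T and 2 in SUM159PT (median 0.32). Several members higher in HS578T belonged to the HOXB cluster: HOXB3 gave 1004, 1161 and 1089.6 against 26.5, 39.1 and 44.5 (4.40 ± 0.33), HOXB6 gave 493, 456 and 391 against 11.8, 13.4 and 4.19 (4.18 ± 0.33), and HOXB2 and HOXA2 differed by 2.29 ± 0.36 and 2.12 ± 0.26. HOXB5 and HOXB7, which lie within the same cluster, were not called (0.88 ± 0.21 and -0.35 ± 0.30). HOXD8 and HOXC13 were higher in SUM159PT, at 21.2, 40.6 and 29.3 against 229, 207 and 259 (-2.43 ± 0.21) and 88.3, 80.1 and 112 against 276, 316 and 269 (-1.48 ± 0.14).

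Cadherins gave 9 of 24 higher in HS578T and 3 in SUM159PT (median 0.31), and the clustered β-protocadherins that passed the level filter lay on one side. All 10 PCDHB genes tested, cell-surface adhesion genes that stand in a row on chromosome 5, were higher in HS578T. The largest differences were those of PCDHB7, with means of 572 ± 29.2 in HS578T and 18.5 ± 9.88 in SUM159PT (4.13 ± 0.27), and PCDHB15, at 302, 449 and 439.8 against 10.2, 8.15 and 6.35 (4.07 ± 0.25); the smallest was that of PCDHB2, with means of 1468 ± 54.8 and 325 ± 24.5 (2.12 ± 0.23). PCDHB14 gave 827, 1183 and 1065 against 56.6, 66 and 64.7 (3.72 ± 0.24). In SUM149PT the 10 means ran from 1.24 to 30.1 units, below those of HS578T in every case. These genes share sequence, probe sets may read several of them, and they do not count as 10 separate results. Among 26 runs of at least 4 neighbouring tested genes called in the same direction, the PCDHB run was the longest. The family was singled out after its values were seen. A PCDHB gene near the floor in the other lines could pass the level filter only by being high in HS578T. That all 10 were called, and the length of the run, were thus in part set by the filter and are no result about the family.

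Other adhesion genes of the cadherin class were split. PCDH18 gave 3033, 3136 and 3548 in HS578T and 413, 486 and 468 in SUM159PT (2.79 ± 0.26), whereas CDH12 gave 56, 62.6 and 79.1 against 1302, 1289 and 1188 (-3.97 ± 0.21), PCDH17 gave 47.9, 16 and 53.2 against 541, 447 and 414 (-3.20 ± 0.34) and PCDH9 differed by -1.77 ± 0.19. Genes of axon guidance and neural adhesion gave 15 of 41 higher in HS578T and 5 in SUM159PT (median 0.33). L1CAM, a neural adhesion molecule, gave 1994, 1970.3 and 2336 against 13.7, 19 and 50.4 (5.68 ± 0.25), with 7067 in SUM149PT, and NLGN1, a neuroligin like NLGN4X, gave 435, 376 and 365 against 10.5, 4.53 and 9.93 (4.07 ± 0.17). CNTN4, a contactin, differed by 3.44 ± 0.33. NRCAM, a relative of L1CAM, was higher in SUM159PT at 107, 135 and 92.9 against 2131, 2024 and 1776 (-3.97 ± 0.21), as were PLXNA2, a semaphorin receptor (-2.12 ± 0.13), SEMA3F, a secreted semaphorin (-1.93 ± 0.10), and SEMA4D (-1.17 ± 0.38). SEMA4D was not called without HS578T replicate 3 (-0.70, adjusted p = 0.111, limma). It was also not called with its probe sets averaged (-0.55, adjusted p = 0.0703, limma) or with an offset of 64 (-0.66).

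Few proliferation genes were called. Of 32 mitotic genes 1 was higher in HS578T, AURKB, a kinase of the chromosomal passenger complex, at 2519, 2391 and 1897 against 1063, 851 and 1023 (1.2 ± 0.11), and 0 in SUM159PT (median 0.02). Of 32 DNA replication genes 1 was higher in HS578T and 3 in SUM159PT (median -0.29). MCM6, a subunit of the replicative helicase, gave 3998, 4037 and 4082 against 10132, 10492 and 10440.3 (-1.35 ± 0.07), POLE2 and POLA1, polymerase subunits, differed by -1.91 ± 0.08 and -1.25 ± 0.09, and GINS4, the 1 member higher in HS578T, by 1.36 ± 0.24. With its probe sets averaged GINS4 differed by 0.63 and was not called. Of 22 p53 targets 4 were higher in HS578T and 2 in SUM159PT (median -0.13): TP53INP1 gave 733, 940.1 and 798 against 24.3, 46.1 and 56.2 (3.89 ± 0.23), PLK2 gave 3420.1, 3859 and 4439 against 852, 854 and 831 (2.18 ± 0.14), and PMAIP1, SESN2 and AEN differed by 2.16, 1.80 and -1.56. The standard targets CDKN1A and MDM2 were not called.

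The cell cycle inhibitors included CDKN2B of chromosome 9p21, whose neighbours were examined by position. Of 26 cyclins, inhibitors and 9p21 genes, 3 were higher in HS578T and 1 in SUM159PT (median -0.06). CDKN2B, the CDK4 and CDK6 inhibitor p15, gave 788, 877 and 999 in HS578T and 5.64, 16 and 12.2 in SUM159PT (5.06 ± 0.24, adjusted p = 8.64e-15), with 5.64 in SUM149PT. CDKN2D and CDKN1B, further inhibitors, differed by 1.71 ± 0.15 (0.84 and not called with its probe sets averaged) and 1.1 ± 0.13, and CCND3, cyclin D3, by -1.46 ± 0.11. CDKN2A, which encodes p16, was not called, at 137, 98.6 and 89.1 against 56.8, 67.7 and 96.5 (0.48 ± 0.42). MIR31HG, the long RNA that hosts the microRNA miR-31, gave 1128, 1034 and 1015 in HS578T, 59.2, 67.1 and 99.1 in SUM159PT and a mean of 43.8 ± 5.3 in SUM149PT. The mature miR-31-5p was not measured; its RefSeq sequence (minus strand, chr9:21512158-21512178, GRCh38.p14) is shown, with the seed at bases 2 to 8 in capitals, as the product encoded in that transcript.
hsa-miR-31-5p: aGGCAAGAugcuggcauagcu
MTAP, the methylthioadenosine phosphorylase gene beside CDKN2A, depended on the probe set. The one chosen by brightness read 82.5, 71.1 and 69.2 in HS578T and 74.8, 50.6 and 74.4 in SUM159PT and was not called. Another read 509, 675 and 514 in HS578T, 0.74, 1.36 and 4.47 in SUM159PT and 4.27, 0.80 and 1.59 in SUM149PT, and 4 of the 6 MTAP probe sets were high in HS578T and under 50 units on every SUM159PT and SUM149PT array. This is given as a description, chosen after the values were seen, with no test. Of further neighbours FOCAD, the focadhesin gene, was higher in HS578T at 904, 814 and 794 against 219.6, 233 and 255 (1.76 ± 0.10). MLLT3 (3.37 ± 0.20) and TUSC1 (1.00 ± 0.23) were also called higher in HS578T. IFNA17 (-1.21 ± 0.40) and C9orf72 (-2.27 ± 0.16) were called higher in SUM159PT. KLHL9 gave 2005, 2349 and 2329 against 1093, 1178 and 1299 and ELAVL2 gave 254, 231 and 224 against 228, 189 and 230.0; neither was called.

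Markers of other cell types were at low levels in both lines, with single exceptions. The summed signal of 5 leukocyte markers ran from 257 to 357 units in HS578T and from 2114 to 2267 in SUM159PT, and LCP1, the actin bundler L-plastin, carried that difference (116, 134 and 104 against 2078, 1934 and 1923; -3.90 ± 0.14), while PTPRC, the pan-leukocyte marker, had means of 39 ± 6.94 and 23.7 ± 1.07. For 5 endothelial markers the sums ran from 371 to 506 and from 200.3 to 265, with 4 of 5 under 50 in both lines, and for 4 adipocyte markers from 309 to 356 and from 268 to 328. PECAM1 (1.07 ± 0.19), EGFL7 (1.06 ± 0.31), ERG (1.55 ± 0.28), CSF1R (1.05 ± 0.28) and CEBPA (1.31 ± 0.27) were called higher in HS578T, and CFD (-1.97 ± 0.27) and PPARG (-1.40 ± 0.10) in SUM159PT. With an offset of 64 PECAM1 (0.89), EGFL7 (0.65), CSF1R (0.71), CEBPA (0.69) and CFD (-0.95) were not called. PECAM1, EGFL7 and CSF1R were also not called with quantile normalization or with median centring. With its probe sets averaged PECAM1 differed by 0.56 and was not called. The epithelial sums were 6008 to 6225 in HS578T and 9483 to 11431 in SUM159PT, most of it from KRT8 and KRT18. Leaving out 1 array ended the calls of PECAM1 (HS578T replicate 1, 0.89; SUM159PT replicate 1, 0.95), EGFL7 (HS578T replicate 2, 0.95; SUM159PT replicate 2, 0.96) and CSF1R (HS578T replicate 1, 0.96; SUM159PT replicate 2, 0.83). The part of other cells in the differences was not tested.

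The line difference was measured again in separate arrays, those of cells given AZD3965. There 3158 of the 14141 genes (22.3%) were called, 1683 higher in HS578T (11.9%) and 1475 in SUM159PT (10.4%). Both treatments gave the same call for 2613 genes, which is 86.4% of the calls under DMSO and 82.7% of those under AZD3965, and 21 of the genes called under DMSO had the opposite sign under AZD3965. Over 14141 genes, which are not independent replicates, the 2 sets of differences had r = 0.967. Medium and line were the same in both sets. SULF1 differed by 9.39 under AZD3965, COL1A2 by 8.85, IRX2 by -10.48, EBP by -7.08, FKBP5 by -5.10 and KRT7 by -6.52. All 11 contractile genes and 11 cholesterol genes called higher in HS578T under DMSO were called so again, as were 15 of the 16 glucocorticoid-responsive genes higher in SUM159PT.

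A test of the difference between the 2 line contrasts found 5 genes at an adjusted p under 0.05 (0.0354% of those tested; limma), and 954 at an unadjusted p under 0.05. BNIP3, a mitophagy receptor, had means of 7064 ± 384 in HS578T and 7787 ± 149 in SUM159PT under DMSO and of 11066 ± 209.9 and 8129 ± 565 under AZD3965, so that its line difference was -0.14 ± 0.06 under DMSO and 0.45 under AZD3965. PDK1 had means of 818 ± 84.3 and 1680.1 ± 93.8 under DMSO and of 1557 ± 123 and 1715 ± 227 under AZD3965 (-1.03 ± 0.10 and -0.13). For both genes the HS578T mean was higher under AZD3965 than under DMSO. P4HA1, a collagen prolyl hydroxylase, had means of 5233 ± 78.5 and 3204 ± 140.0 under DMSO and of 7356 ± 182 and 3118 ± 40.2 under AZD3965 (0.71 ± 0.06 and 1.23). AK4, a mitochondrial adenylate kinase, had means of 2155 ± 127 and 132 ± 8.36 under DMSO and of 3782 ± 65.9 and 125 ± 25.3 under AZD3965 (3.87 ± 0.10 and 4.76). In each of the 4 genes the HS578T level stood higher relative to SUM159PT under AZD3965 than under DMSO. The fifth was TNF, an inflammatory cytokine that was dim in both lines, at 34.8, 56 and 38.4 against 13, 14.5 and 23 under DMSO, where it differed by 0.84 ± 0.20, against -0.77 under AZD3965. With an offset of 1 its DMSO difference was 1.32 and called.

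**Figure D5:**
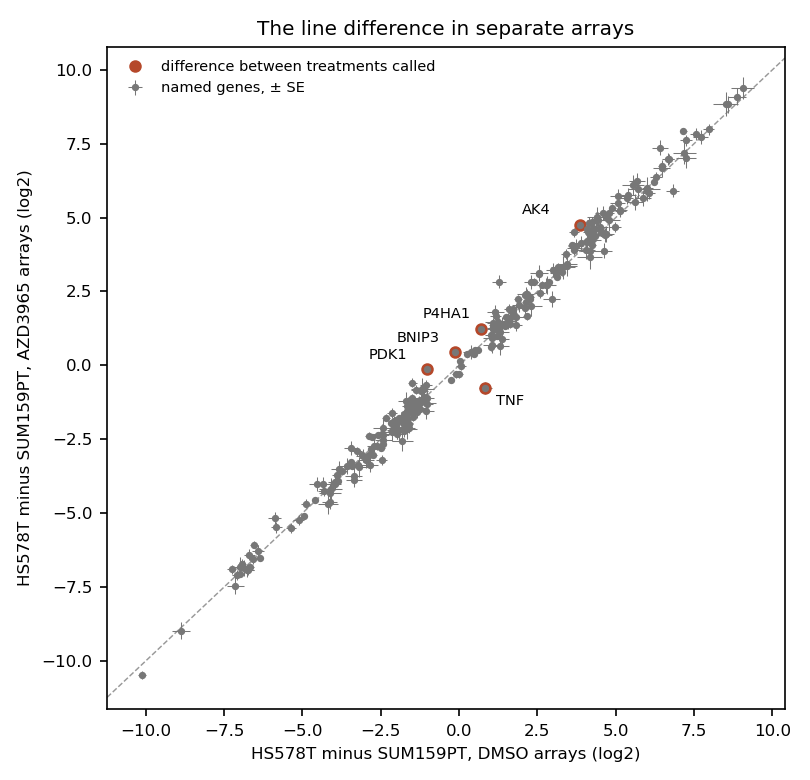
HS578T minus SUM159PT difference of each named gene under DMSO (horizontal axis) and under AZD3965 (vertical axis), both in log2 with standard errors as bars; the dashed line marks equality. Points lie along the line from IRX2 at the lower left to SULF1 at the upper right. The 5 genes drawn as larger red points are those whose line difference itself differed between treatments.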

How the data were processed

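Gene expression of 24 samples in 8 groups of 3 was read on Affymetrix arrays, 1 array a sample. The deposited table held 1 linear signal intensity per probe set and array, which the authors computed with MAS5, per the submitters' processing notes that name no version. Each array had a 2% trimmed mean of 500.1, so the signals were taken as globally scaled, and no further normalization was applied. Such scaling assumes like total RNA content and hides a change shared by most genes. Signals reached from 0.0284 to 52948 units, and 16 was added before log2 to damp the noise of dim probe sets.

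Of 54675 probe sets 41097 had 1 gene symbol in the platform annotation, 1801 several and 11777 none; only the first were named, and symbols of 41043 were updated by gene ID from RefSeq's gene table. Each of 19775 genes was read through its probe set of highest mean, and 14141 genes at or above the 40th percentile (5.58 in log2) were tested. Group means over the 24 arrays were fitted in limma 3.58.1 (R 4.3.3) with a trended empirical Bayes prior, 16 residual degrees of freedom and Benjamini-Hochberg adjustment over all genes tested; tests were two-sided. Precision is limited by 3 arrays a group. On simulated data with known changes, the fit for HS578T against SUM159PT under DMSO over 14141 genes called 100% of 75 genes changed 3-fold and of 75 changed 8-fold, 2% of 50 changed 1.5-fold, which is under the 2-fold minimum, and 4 unchanged genes.

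The comparison and the 44 gene lists (1339 entries, of which 1049 were tested, 177 lay below the filter and 113 were not analysed here) were chosen with earlier results of these data known. Genes were named by rule: the 15 largest differences each way among called genes with separate arrays and a higher mean of at least 200 units, up to 4 called members each way per list, a fixed set of line, lactate and glucocorticoid markers, and up to 4 genes each way whose line difference changed with AZD3965. Outside it, with values seen, are COL1A1, COL4A1, COL4A2, MYOCD, MYLK, SRF, AXIN2, RGS2, DUSP1, PSMB8, TAP1, TAP2, ISG15, MX1, HOXB5, HOXB7, CDKN2A, MTAP, the genes named as not called without values (DES, MYH11, CNN2, ESR1, FOXA1, TGFBR1, TGFBR2, NQO1, CDKN1A and MDM2), markers of other cell types and the genes named by position. Replicate numbers did not pair arrays of the lines, with correlations of deviations of -0.04, 0.03 and 0.04. Promoter and microRNA sequences came from RefSeq (GRCh38.p14). Alternatives covered scaling, offset, filter, probe set, samples in the fit, replicate block, left-out arrays and fold minimum. The knockdown arrays entered the fit for the shared spread and are not described.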

Additional observations from a re-analysis of the deposited data

Results flagged for a closer look

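The line difference changed with treatment for 5 genes by the interaction test, given as the difference under DMSO minus that under AZD3965 in log2 with its limma adjusted p. It was -0.59 ± 0.09 (SE) for BNIP3 (adjusted p = 0.00771), -0.90 ± 0.14 for PDK1 (adjusted p = 0.00771), -0.53 ± 0.08 for P4HA1 (adjusted p = 0.0117), -0.89 ± 0.15 for AK4 (adjusted p = 0.0124) and 1.61 ± 0.28 for TNF (adjusted p = 0.0183). When all probe sets of a gene were averaged, 2 genes passed. Groups of 3 arrays were too small for a test of single outlying arrays.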

How the results depend on the processing

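Of 276 named genes 237 kept direction and call under every setting that tested them, and no difference changed sign where it was called. The count of 3024 called genes was 8207 with no fold minimum and 1036 with a 4-fold minimum, and ran from 2312 (filter at the 60th percentile) to 3336 (no filter) under the other settings. Leaving out each array in turn gave 3037 to 3102. Centring each array on its median moved the median difference from -0.03 to -0.12 and the share of calls higher in HS578T from 54.0% to 47.8%; CDH2 then differed by 0.997 and was not called. With the replicate number as a block 3026 genes were called under DMSO, 3156 under AZD3965 and 6 for the difference between them, against 5, so the block moved no count by over 1.5 times. When probe sets were averaged per gene, the last count was 2. Among named genes the call ended for 25 with an offset of 64, for 19 when probe sets were averaged, for 8 with median centring, for 4 with quantile normalization and for 1 to 8 without a given array, and TNF became called with an offset of 1 (1.32); the cause was not tested. Signals under 50 units may be background, so signal over background limits what can be said of the low side of each large difference.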
